A study of Caenorhabditis elegans with 3 samples.

Results

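The srh and sri genes encode chemoreceptors of Caenorhabditis elegans, and UNC-55 ChIP-seq peaks were sparse around them: a summit of the authors' reproducible peak list lay near the start of 5 of 281 genes (1.78%), against 25.5% of all protein-coding genes. The members were the Ensembl protein-coding genes whose symbol is srh or sri followed by a number. They comprised 220 srh and 61 sri genes out of 19973 nuclear protein-coding genes. A gene was counted when a peak summit lay between 2000 bp upstream and 500 bp downstream of one of its transcript starts, called its window here. Family membership was taken from the gene symbols and was not checked against protein sequence.

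Chemoreceptors of this kind are G protein-coupled receptors, most of which act in the sensory neurons of the head whose cilia are exposed to the environment. The srh and sri families belong to the Str superfamily, which expanded by local duplication into long arrays, mostly on chromosome V. Many members are used in only 1 or a few pairs of sensory neurons. UNC-55 is a COUP-TF type nuclear receptor, known for setting the synaptic pattern of VD motor neurons, which release GABA.

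The 3 samples were biological replicates of 1 group: whole L2 larvae of mixed sex from strain NC1639, with no other genotype or treatment to compare. The strain carries the integrated transgene wdIs49 on chromosome III, in which the ttr-39 promoter, active in GABA motor neurons, drives a fusion of UNC-55a and GFP, and a dpy-20+ marker. The peaks therefore report the tagged protein made from that transgene, and binding of the endogenous protein was not measured. In whole animals, strong binding in few cells and weak binding in many cells cannot be told apart. The labels call the target eGFP-unc-55 in all 3 samples, while the note on replicate 3 speaks of a C-terminal GFP-FLAG fusion. A size range of 150 to 350 bp is given for replicates 1 and 2 and microtip sonication for replicate 3. The cells that express the transgene could not be checked by marker genes, since peaks hold no RNA.

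The authors deposited 5 peak lists in ce11 coordinates. The optimal list held the 5993 peaks that passed their threshold for reproducibility (IDR, the irreproducible discovery rate), with signal values from 45.8 to 1220 and a median of 109. The pooled list held 30000 peaks, and the relaxed lists of replicates 1, 2 and 3 held 30000, 30000 and 25262 peaks. Relaxed lists contain weak calls by construction. The signal value was written by the authors' caller, and a rank of 1 is the strongest peak of a list. The lists hold no read counts, so depth is unknown and intervals that need it are left out. For each replicate, its 5993 strongest peaks were also taken, as many as the optimal list holds. The samples form 1 group, and the control against which the authors called the peaks was not analysed here. No test was therefore made, and the main counts are set beside the same counts over all genes.

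Peak sequences from 3 of the srh and sri genes that carried a reproducible summit are shown first, because the results turn on these few sites. They are read 5′ to 3′ on the plus strand of the RefSeq genome WBcel235, which is the ce11 build, and the 21 bases centred on the summit are in capitals. The stretches are chrV:13962103-13962314 for srh-24, chrV:16499119-16499287 for srh-136, and chrV:10260723-10261022 for sri-18. The sri-18 stretch is the central 300 bases of its peak. The last one, chrV:7465610-7465805, is the peak of replicate 1 near srh-89, which is described further on because it was in all 3 replicate lists and not in the optimal list.
srh-24: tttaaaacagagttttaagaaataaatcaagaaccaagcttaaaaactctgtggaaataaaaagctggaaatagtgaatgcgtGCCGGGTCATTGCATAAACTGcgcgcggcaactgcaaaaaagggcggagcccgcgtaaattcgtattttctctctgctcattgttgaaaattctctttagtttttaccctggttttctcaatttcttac
srh-136: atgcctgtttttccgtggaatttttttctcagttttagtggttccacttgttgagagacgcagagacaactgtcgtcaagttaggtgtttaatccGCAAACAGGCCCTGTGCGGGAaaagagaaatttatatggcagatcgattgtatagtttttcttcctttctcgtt
sri-18: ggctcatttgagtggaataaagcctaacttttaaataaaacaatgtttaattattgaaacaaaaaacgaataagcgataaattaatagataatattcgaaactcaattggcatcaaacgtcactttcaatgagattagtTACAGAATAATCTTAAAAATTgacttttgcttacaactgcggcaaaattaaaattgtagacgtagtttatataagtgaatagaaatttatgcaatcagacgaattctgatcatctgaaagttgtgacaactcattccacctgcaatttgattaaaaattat
srh-89: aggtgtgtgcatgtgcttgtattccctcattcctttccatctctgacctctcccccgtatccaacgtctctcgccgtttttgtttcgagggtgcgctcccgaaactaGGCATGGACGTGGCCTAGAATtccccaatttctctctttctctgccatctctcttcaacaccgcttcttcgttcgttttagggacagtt

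The 5 summits differed in composition. Within 50 bp of the summit, GC content was 55.4% at sri-5, 48.5% at srh-16, 48.5% at srh-24, 42.6% at srh-136 and 30.7% at sri-18, against a median of 43.6% over all optimal summits (quartiles 37.6% and 49.5%). The sri-18 summit was thus AT-rich beside most summits of the list, and the sri-5 summit GC-rich. AGGTCA, a core element of nuclear receptor sites, was looked for on either strand. It was in 0 of the 5 optimal peaks at srh and sri genes and in 273 of all 5993 optimal peaks (4.56%). The shorter GGTCA, which is part of AGGTCA and was searched after the sequences had been seen, was in the srh-16 and srh-24 peaks, and in 17.3% of all optimal peaks. The srh-89 peak of replicate 1 held AGGTCA. A match is a string of letters and not a measured binding site.

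Of the 5 genes, 3 were srh genes (1.36% of 220) and 2 were sri genes (3.28% of 61). The other chemoreceptor families had a summit at 26 of 1029 genes (2.53%), and genes outside the receptor families at 5063 of 18663 (27.1%). The srh and sri genes were therefore close to the other receptor families and far below the rest of the genome.

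**Figure D1:**
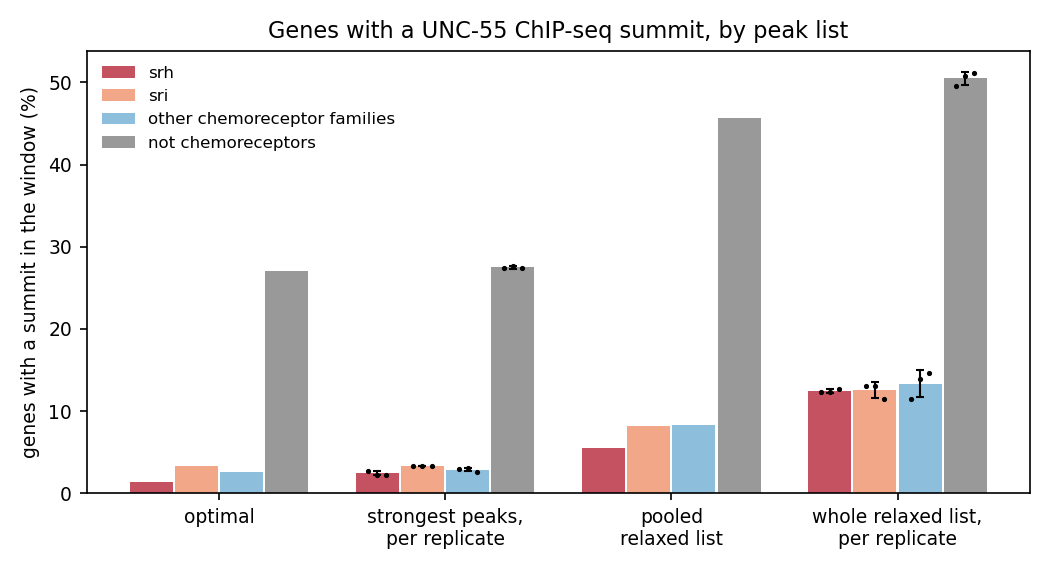
Share of genes (percent, vertical axis) with a summit in the window, for srh, sri, other chemoreceptor families and genes that are not chemoreceptors, in 4 kinds of peak list. Bars for the optimal and pooled lists are single values; bars for the replicate lists are means, with the 3 replicates as points and the SD as error bars. In the optimal list srh stands at 1.36% and genes outside the receptor families at 27.1%.

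The low share was repeated in each replicate taken by itself. Among the 5993 strongest peaks, summits lay in the windows of 8 members in replicate 1, where 25.7% of all genes had one, 7 in replicate 2 (26.1% of all genes) and 7 in replicate 3 (25.8% of all genes). As mean ± SD over the replicates this was 2.61% ± 0.205 of the members (n = 3), 2.85% ± 0.202 of the other receptor genes and 27.5% ± 0.211 of the genes outside the receptor families. The srh and sri shares differed from those of genes outside the receptor families by far more than the spread between replicates, and from those of the other receptors by about as much as that spread.

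The relaxed lists, which reach far weaker peaks, gave more members. The pooled list had a summit at 17 members (6.05%), against 43.2% of all genes, with 12 srh and 5 sri genes among them. The whole lists of replicates 1, 2 and 3 each had summits at 35 members (12.5%), against 47.1%, 48.3% and 48.7% of all genes. The 35 were largely not the same genes from list to list. Of the 72 members with a summit in at least 1 whole list, 50 (69.4%) had it in 1 replicate and 11 (15.3%) in all 3. The other 209 members (74.4%) had no summit in any list. Over all genes, 27.1% of the 12621 genes with a summit had it in 1 replicate and 55.2% in all 3. Among the strongest peaks the picture was another one, with 6 of 9 members (66.7%) found in all 3 replicates and 71.7% for all genes.

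The strongest peak was at sri-5 (WBGene00005517), on chromosome I. The peak ran from 11182421 to 11182657, and its summit was 251 bp upstream of the sri-5 start, with a signal of 370 and rank 220 of the optimal list. Its signal was 178 in replicate 1, 135 in replicate 2 and 62.4 in replicate 3, at ranks 309, 153 and 230. All 3 replicates thus placed it near the top of their lists. The same summit lay 481 bp upstream of rsr-1, which encodes an SR-related protein of the splicing machinery and is transcribed away from sri-5.

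The peak at srh-16 (WBGene00005241) was also among the stronger ones. It ran from 12291676 to 12291927 on chromosome V, with its summit 58 bp upstream of the srh-16 start, a signal of 338 and rank 293. In replicates 1, 2 and 3 the signals were 188, 87.3 and 57.7, at ranks 256, 624 and 302. Replicates 1 and 3 ranked it close to its rank in the optimal list, and replicate 2 ranked it lower.

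At srh-24 (WBGene00011192) the summit was 1180 bp upstream of the start, in a peak from 13962103 to 13962314 on chromosome V, with a signal of 189 and rank 1345. Replicates 1, 2 and 3 gave signals of 93.0, 72.2 and 27.4 and ranks of 1601, 1000 and 1826. It lay in the windows of 3 genes outside the receptor families: 219 bp upstream of algn-13, a homolog of an enzyme subunit of N-glycosylation, 221 bp upstream of R10D12.13, and 1730 bp upstream of sao-1. The start nearest to the summit was that of algn-13, not that of srh-24.

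At srh-136 (WBGene00005353) the summit was 1628 bp upstream of the start, in a peak from 16499119 to 16499287 on chromosome V, with a signal of 144 and rank 2153. The replicate signals were 81.7, 32.1 and 29.1, and the ranks 1983, 3489 and 1658. The start of F36D3.1 was nearer, at 128 bp. The summit thus lay close to a gene outside the families and far out in the srh-136 window.

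The weakest of the 5 was at sri-18 (WBGene00005530), in a peak from 10260704 to 10261039 on chromosome V, with a signal of 83.5 and rank 3893. Its summit was 312 bp upstream of the sri-18 start. In replicates 1, 2 and 3 the signals were 34.3, 36.7 and 14.3, and the ranks 4984, 3017 and 4046. It was the only 1 of the 5 in no window of a gene outside the receptor families. On the other side, 259 bp from the summit, lies the 3′ end of ric-4, which encodes the synaptic SNARE protein SNAP-25, and the window of ric-4 itself held 1 optimal summit with a signal of 173.

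**Figure D2:**
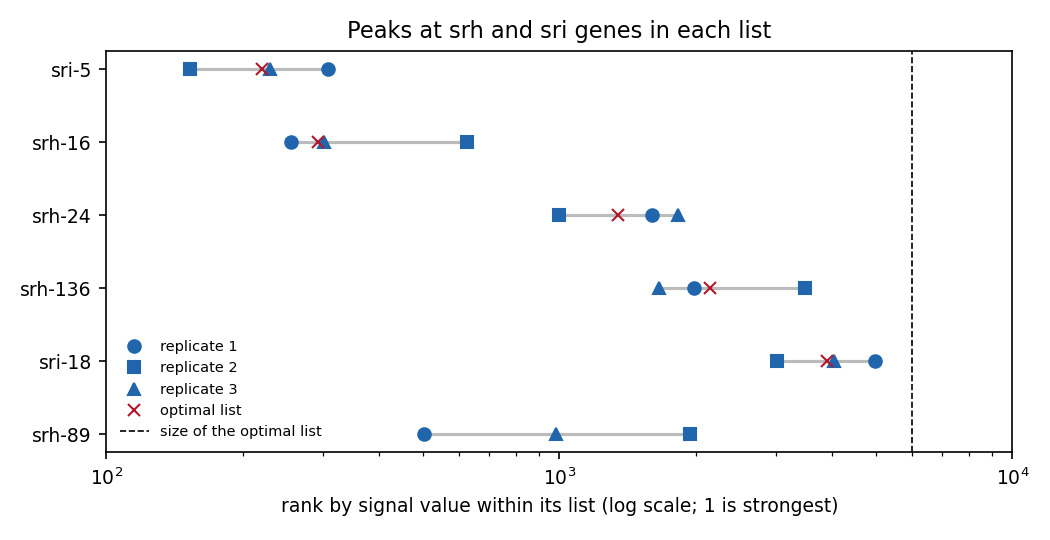
Rank by signal within each list (log scale, 1 is strongest) for the 5 members with an optimal summit and for srh-89; blue symbols are the 3 replicates, red crosses the optimal list, and the dashed line marks the 5993 peaks of the optimal list. The replicate ranks of sri-5 lie between 153 and 309 and those of sri-18 between 3017 and 4984, and srh-89 has no cross.

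All 5 summits were intergenic, as were 62.2% of all optimal summits. In each case the 3 replicate summits lay close together, from 9 bp apart at srh-16 to 84 bp at sri-18. The order of strength was nearly the same in each replicate: sri-5 and srh-16 were the strongest pair everywhere, and sri-18 was the weakest in replicates 1 and 3, while srh-136 was the weakest in replicate 2.

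The shared peaks made up 4 of the 5. Among all 4134 optimal summits that lay in any window, 1511 (36.6%) were in the windows of more than 1 gene. That share counts each summit once and sharing with a gene of any kind, so it is not a like measure to the 4 of 5. For the other chemoreceptor families, 18 of 27 summits (66.7%) lay in the window of a gene outside the receptor families as well. None of the named neighbours that shared a summit with a member had another optimal summit in its window. With each peak given to the nearest start, 3 members kept theirs, namely srh-16, sri-5 and sri-18. Which of the genes a shared peak acts on cannot be told apart from these data.

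**Figure D3:**
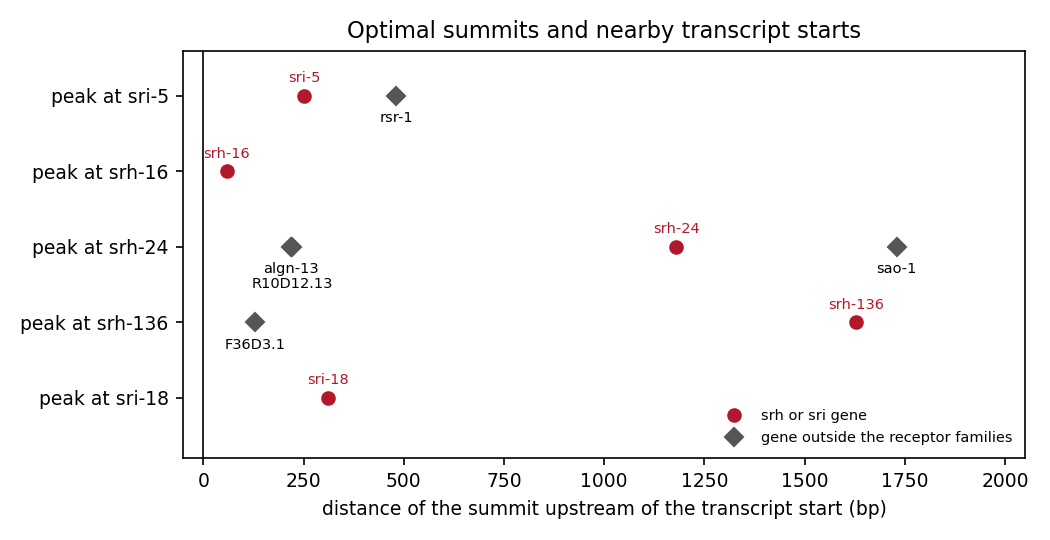
Distance in bp from each of the 5 optimal summits to the start of the srh or sri gene (red circles) and to the starts of genes outside the receptor families named in the text (grey diamonds). At srh-24 and srh-136 a diamond lies nearer to 0 than the circle.

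The neighbourhood was described for all members too. The window of 118 members (42.0%) overlapped the window of a gene outside the receptor families, and that of 163 members (58.0%) overlapped none. Optimal summits lay at 5 of the 118 (4.24%) and at 0 of the 163. The 4 members with a shared summit are in the overlapping class by construction. In the other receptor families the shares were 4.38% with such an overlap and 1.29% without. Over all genes they were 30.4% and 17.6%, setting each gene against the windows of other genes outside the receptor families. In the pooled list the member counts were 10 (8.47%) and 7 (4.29%), against 44.7% and 40.9% of all genes. The sri-18 window overlapped such a window, although its summit did not lie in the overlap.

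Counted per base, the member windows covered 0.675 Mb and held 7.41 optimal summits per Mb. The part of them outside any window of a gene outside the receptor families held 1.94 per Mb, from 1 summit in 0.515 Mb. The part inside such a window held 4 summits in 0.16 Mb, a higher density. Windows of genes outside the receptor families held 93.0 per Mb, and the sequence outside all windows 34.7 per Mb. The srh and sri windows were thus sparser in summits than the sequence outside all windows, but the densities of the split windows rest on 1 and 4 summits. In the pooled list the member windows held 45.9 summits per Mb and the sequence outside all windows 283.

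By distance, too, the members stood near the other receptors and apart from genes outside the families. From the start of a member the nearest optimal summit was a median of 21149 bp away (quartiles 10350 and 38307 bp), against 22744 bp for the other receptors and 6126 bp for genes outside the families. For 216 members (76.9%) it was more than 10000 bp away. That share was 76.9% in the other receptors, 37.4% in genes outside the families and 40.0% in all genes. The longest distance was 248486 bp for members, 210722 bp for the other receptors and 251900 bp for genes outside the families. Members of an array share their surroundings, so these distances are not independent of each other.

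**Figure D4:**
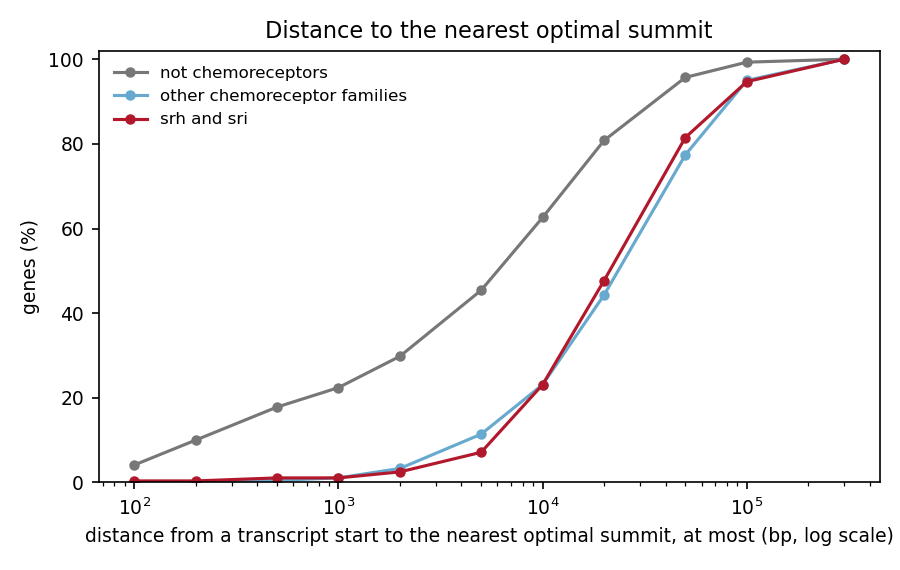
Cumulative share of genes (percent) whose nearest optimal summit lies within a given distance of a transcript start (bp, log scale), for srh and sri, other chemoreceptor families, and genes that are not chemoreceptors. At 10000 bp the curves stand at 23.1%, 23.1% and 62.6%.

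Some of the summits nearest to the windows, but outside them, lay in the windows of other genes. Over the genome, 69.0% of all optimal summits lay in the window of some gene. The nearest was 320 bp outside the sri-10 window, 2320 bp upstream of the start, with a signal of 63.2, in the window of C54E10.6. For srh-40, on chromosome III, a strong summit with a signal of 334 and rank 304 lay 2482 bp upstream, in the windows of F20H11.4 and of mdh-2, which encodes a malate dehydrogenase. For srh-1 a summit with a signal of 56.1 lay 2581 bp upstream, in the window of the collagen gene col-157. A summit with a signal of 57.0 lay 1134 bp downstream of the sri-69 start, and one with a signal of 104 lay 2800 bp upstream of srh-128. The srh-128 summit lay in the window of Y47G7B.2, and the sri-69 summit in no window of a gene outside the receptor families. Of the 276 members without an optimal summit, 2 (0.725%) had one up to 500 bp outside the window and 28 (10.1%) up to 5000 bp. Of all genes without an optimal summit, the shares were 3.48% and 30.7%, and of those in the other receptor families 0.598% and 12.9%.

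The 4 members listed for a known role or expression site in sensory neurons had no summit in any of the lists, as was the case for 209 of all 281 members (74.4%). They were srh-142, expressed in ADF neurons, srh-220 and srh-234, expressed in ADL neurons, and sri-14, which acts in ASH neurons in avoidance of high concentrations of diacetyl. Their nearest optimal summits were 38258 bp, 36392 bp, 61927 bp and 23899 bp away, in that order. At sri-14, 8.85% of the 50-base words in the window were found once in the genome, so most of it cannot be read uniquely with reads of that length. At srh-220 and srh-234 the shares were 99.8% and 100%.

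Of the 20 genes listed for acting with or after chemoreceptors, 4 (20.0%) had an optimal summit, close to the 25.5% of all genes, so the count itself does not set the list apart. The strongest was at the arrestin gene arr-1, with a signal of 562 and rank 46. The others were egl-4, which encodes a cGMP-dependent protein kinase (signal 135), tax-6, which encodes the catalytic subunit of calcineurin (signal 83.6), and grk-2, which encodes a kinase of G protein-coupled receptors (signal 70.4). These 4 genes also act outside chemosensory neurons. The listed genes without a summit included the G protein genes odr-3, gpa-2, gpa-3 and gpa-13 and the channel genes tax-2, tax-4, osm-9 and ocr-2. The others without one were odr-1, daf-11, odr-4, odr-8, rgs-3, gcy-8, gcy-23 and unc-101. Whether listed genes with and without a summit differ in where they act was not tested.

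One site near an srh gene was strong in every replicate and missing from the optimal list. It lay upstream of srh-89 (WBGene00005310) on chromosome V. In replicate 1 the peak ran from 7465610 to 7465805, with its summit 931 bp upstream of the start, a signal of 155 and rank 502. In replicates 2 and 3 the summits were 912 bp and 907 bp upstream, with signals of 51.7 and 38.1 and ranks of 1941 and 984. By rank this site stood above srh-24, srh-136 and sri-18 in replicates 1 and 3. From the srh-89 start, the nearest summit of the pooled or the optimal list was 26951 bp away. The replicate summits at this site also lay in the window of F25E5.1, whose start was 157 bp from the summit in replicate 1.

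Such absences were rare over the genome. Of the 4203 strongest peaks of replicate 1 that met strongest peaks of replicates 2 and 3, 73 (1.74%) touched no pooled peak, and the srh-89 peak was the second strongest of these in replicate 1. The summits of these 73 peaks lay in the windows of 118 genes (0.591% of all), among them srh-89 and 1 gene of the other receptor families. The reason for the absence was not tested.

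The other members found among the strongest peaks of a replicate, but not in the optimal list, were weaker. At srh-42 on chromosome II the summit ranked 3387 in replicate 2 and 5438 in replicate 3, and 10304 in replicate 1, and was shared with Y54G11A.4. At srh-127 (rank 5764) and at srh-269 (rank 3899, 278 bp upstream) the summit was among the strongest in replicate 1 only. The srh-127 summit was shared with F37B4.15. The srh-269 summit lay in no window of a gene outside the families.

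Across the whole relaxed lists, 11 members had a summit in all 3 replicates. In 7 of them the replicate summits lay within 100 bp of each other, and these were the 5 members with an optimal summit, srh-89 and srh-42. In the other 4, srh-2, srh-127, srh-172 and sri-10, of which srh-172 was named after its values were seen, they lay 113, 145, 482 and 915 bp apart. At these distances the replicates do not mark 1 common site as closely as at the other 7. The limit of 100 bp was chosen after the data were seen, and the same count over all genes is not given. The 5 members with an optimal summit had already passed the authors' threshold for reproducibility, so their close replicate summits add little.

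The 12 members with a pooled summit and no optimal one had weak peaks, with signals from 8.64 to 33.1 against a lowest optimal signal of 45.8. The highest were 33.1 at srh-286, 29.5 at srh-2, 28.1 at sri-65, 24.5 at srh-170 and 20.3 at srh-40. The sri-65 summit also lay in the window of gst-44, a glutathione S-transferase gene, and the srh-40 summit in those of mdh-2 and F20H11.4. Of the 12 members, 10 (83.3%) had at least 1 summit in no window of a gene outside the receptor families, a share near the 78.4% of all genes with a pooled summit and no optimal one. The neighbours srh-181 and srh-182 share 1 of these summits, and both were named after their values were seen.

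The members lie mostly on the arms of chromosomes, which here are the outer parts when each chromosome is cut into 3 equal parts: 245 of 281 (87.2%) against 61.2% of genes outside the receptor families. Chromosome V held 201 members (71.5%) and chromosome II 58 (20.6%). Within the arms of V, 2 of 173 members (1.16%) had an optimal summit, against 415 of 2514 genes outside the families (16.5%). In the centre of V it was 2 of 28 (7.14%), against 22.2%. On the arms of II it was 0 of 56, against 22.8%. Genes outside the families had a lower share on V (18.7%) than over all chromosomes (27.1%). The part of chromosome position in the low share was not tested, and the member counts in these regions are small.

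Repeated sequence was measured as the share of 50-base words in a window that occur once in the genome. Its median was 99.8% for members and 100% for all genes, and 211 members (75.1%) reached 95%, against 81.4% of all genes. Among members at or above 95%, 5 of 211 (2.37%) had an optimal summit. With windows as unique it was 27.7% of all genes and 29.4% of genes outside the families. Below 95% it was 0 of 70 members, against 16.1% of all genes. The part of repeated sequence in the low share was not tested. The sources used here do not give the read length or how the authors treated repeats. All 5 optimal peaks consisted of unique words throughout.

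Promoters, taken as 250 bases before to 50 bases after each start, had a median GC content of 34.0% in members and 34.3% in all genes. AGGTCA on either strand was in 5 member promoters (1.78%), all of them srh, against 4.28% of the promoters of other receptors and 8.27% of all promoters. None of these counts was tied to a peak.

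Among the chemoreceptor families, the share of genes with an optimal summit ran from 0% to 16.7%, and no family reached the 25.5% of all genes. The srh family (1.36%) and the str family (2 of 193, 1.04%) are the largest, and both stood low. The sri share of 3.28% was between srj (1 of 39) and srd (4 of 67), which belong to the same superfamily. The 16.7% of srm comes from 1 of 6 genes, and srx, among the larger families, had no gene with a summit. Differences between families rest on 0 to 4 genes each.

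**Figure D5:**
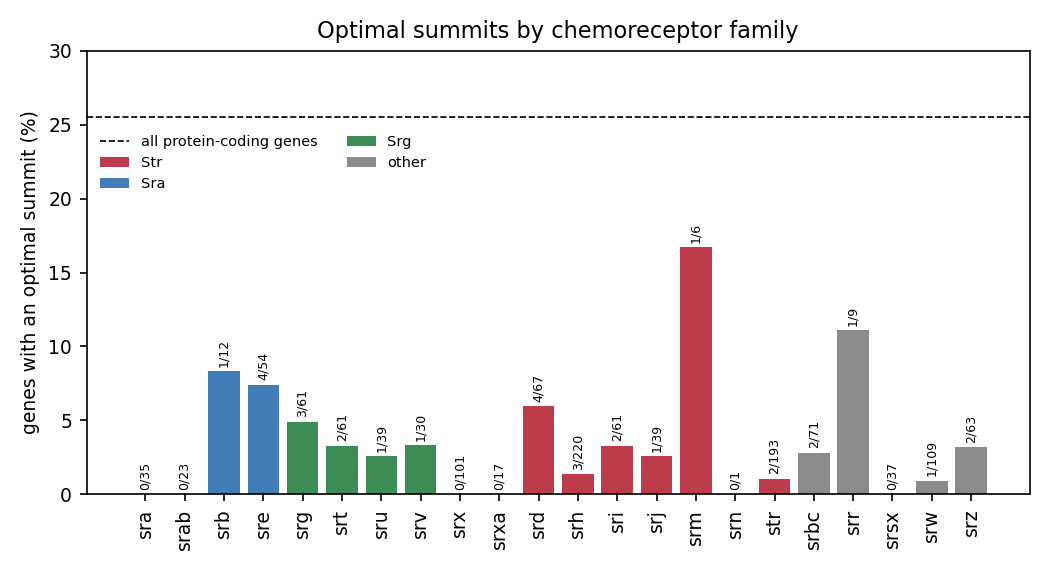
Share of genes with an optimal summit (percent) in each chemoreceptor family, coloured by superfamily, with the number of genes with a summit and the family size above each bar. The dashed line is the share of all protein-coding genes, 25.5%; srh stands at 3 of 220 and sri at 2 of 61.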

How the data were processed

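ChIP-seq of UNC-55 fused to GFP was carried out on 3 biological replicates. The authors deposited peak lists in narrowPeak format: the signal value and the summit offset of each peak are the authors' own, per the notes deposited with the files. Lists were called against 1 shared control, in ce11 and again in ce10. The ce10 lists were not used. The sources used here do not give the aligner or the peak caller. Control reads were not analysed here.

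Summits (start plus offset) were placed in windows of Ensembl release 115 genes with Python 3.11.15, numpy 2.4.6 and pandas 2.3.3. Sequence came from RefSeq WBcel235, whose chromosome lengths match. Replicate peaks that covered 50% or more of an optimal peak were matched to it. Counting was tested on simulated peaks. No test was run, since there is 1 group.

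The members and lists were chosen with earlier results of these data known. Named are all members with an optimal summit, 4 members with a known expression or role, up to 5 members each with the strongest pooled summit, the nearest summit outside the window or a strong summit in a replicate, and neighbours sharing a summit. The neighbour at srh-16 is not reported here. Alternatives changed the window, the list, the assignment of peaks and the replicates. Thresholds on unique words, the limit of 100 bp and the GGTCA search were chosen after the data were seen.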

Additional observations from a re-analysis of the deposited data

How the results depend on the processing

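The count of 5 members with an optimal summit (1.78%) was 5 when any base of the peak counted (26.2% of all genes). It was also 5 (1.78%) when replicate 1, 2 or 3 was left out, while the share of all genes fell from 25.5% to 18.8%, 19.8% and 20.4%. These 3 settings only filtered the optimal list, which was made from all 3 replicates. The count could therefore stay or fall but not rise, and a list called without a replicate was not available. It was 4 among the 2996 strongest optimal peaks, where sri-18 was lost (1.42%, against 17.5% of all genes), and 6 with the gene body, which added sri-69 (2.14%, against 27.2%). It moved to 3 (1.07%, against 19.9% of all genes) with a window from 1000 bp before to 200 bp after the start, and to 3 (1.07%, against 17.8%) when each peak went to the nearest start. It moved to 10 (3.56%, against 29.4%) with 3000 bp upstream, and to 17 (6.05%, against 43.2%) with the pooled list. Peaks among the strongest of all 3 replicates, an alternative chosen after the data were seen, gave 6 (2.14%, against 21.2%), which added srh-89. The member share was below that of all genes in every one of these settings.

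The 4 members whose summit was shared with a gene outside the receptor families became 2 with the smaller window and 2 with the nearest start, and stayed 4 with neighbours of every biotype. The mean of 7.33 members per replicate became 35 with the whole lists (12.5%, against 48.0% of all genes). With the 2996 strongest peaks of each replicate the member mean became 4.67. All 5 optimal peaks were covered in all 3 replicates at 50% and at 1 base, and 1 of them at 80%. For the shared summits, the 2996 strongest peaks and the cover, the same counts over all genes or all optimal peaks are not given. Pooled peaks outside the optimal list alone gave 16 members (5.69%, against 31.6% of all genes) in place of 17. No paired analysis was possible because there is 1 group. Depth is unknown, so a site without a peak cannot be called unbound.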
